A study of Homo sapiens with 9 samples.

Results

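Gold nanorods and gold nanospheres that carried the same antibody were compared by the RNA of the gastric cancer cells they were given to. The libraries were chosen by their labels: 3 from cells treated with AuNR-PEG-Ab (NR) and 3 from cells treated with AuSP-PEG-Ab (SP), so 6 of the 9 libraries of the series. The cells were SNU5, an established human gastric carcinoma line, and the RNA was poly-A selected. AuNR-PEG-Ab and AuSP-PEG-Ab are rods and spheres of gold, coated with polyethylene glycol (PEG) and coupled to ramucirumab, an antibody to the VEGF receptor KDR. All groups received 8 μg/mL of ramucirumab for 24 h. The other 3 libraries, from cells given ramucirumab alone (Ab), carried no gold and are set beside the rods and spheres for their level. Only the antibody dose was matched in the labels. The amount of gold in each group is not given there, so shape and amount of gold cannot be told apart in these libraries. The study describes its in vitro experiments as repeated independently, but the labels do not say that the 3 libraries of a group came from separate cultures. If they did not, p-values measure the spread between these libraries, which may be technical.

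The NR libraries held 25735410, 13863155 and 15943980 counts, and the SP libraries 21682836, 22914759 and 20601906 counts. The 3 Ab libraries held 19566064, 26318227 and 21031024. NR1 was therefore the deepest of the 6 and NR2 the shallowest. Where a gene had 0 counts, up to 3 counts could still have been its due, or 0.117 to 0.216 CPM over the 6 libraries (counting error only). CPM is the count scaled to a common library total. No pair of libraries within a group agreed within sampling noise: the chi-square per gene was 1.80 to 3.69 between NR libraries and 3.02 to 5.14 between SP libraries, so each was used as 1 replicate.

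The labelled cell type was checked against marker genes. Of 10 markers of epithelial carcinoma cells, 8 passed the filter on low counts, and the 10 summed to 3422, 3420 and 3403 CPM in NR and 3915, 3474 and 3556 CPM in SP. KRT8, a keratin of simple epithelia, was the most abundant, at 1868 to 2030 CPM. KRT19 and CLDN3 were at 3 counts or fewer in every library of the 6, and EPCAM and CDH1, which are abundant in many carcinoma lines, were low, at 3.94 to 6.19 and 5.50 to 7.26 CPM. Of 12 leukocyte markers, 7 were at or under 3 counts in all 6 libraries, PTPRC, CD3E and CD68 among them, and the list summed to 5.75 to 8.27 CPM. Of 7 endothelial markers 5 were at that floor, with CDH5 the most abundant of the rest at 19.5 to 22.5 CPM. The 8 fibroblast markers summed to 106 to 122 CPM, led by COL1A1 and LUM, with THY1 at the floor. In bulk samples fewer cells of a type and less RNA per cell cannot be told apart, and all levels here are relative to the total of a library. The Ab libraries differed from both gold groups in these lists. Fibroblast markers summed to 45.7, 42.6 and 17.9 CPM with antibody alone, LUM was at 36.9 to 39.1 CPM in the gold libraries and 0.905 to 0.956 in Ab, and DCN was at 19.4 to 21.9 and 0.334 to 0.792. The list did not move as one: COL1A2 was at 10.1, 10.5 and 1.58 CPM in Ab and at no more than 2.25 in any gold library, and the ranges of COL3A1 overlapped. CDH5 was at 3.53 to 5.02 CPM in Ab. The epithelial list summed to 3336, 3013 and 3091 CPM in Ab, with KRT8 and CDH1 (0.189 to 0.43) lower than in the gold libraries, KRT7 higher (2066 to 2316 against 991 to 1370) and CLDN4 and CLDN7 overlapping. The part of these marker differences in any other level set beside Ab was not tested. KDR, the receptor that ramucirumab binds, had 0 counts in 5 of the 6 libraries and 1 in NR3. Of the Fc gamma receptors, which bind the constant part of an antibody, FCGR1A had 1 to 4 counts in the 6 libraries and FCGR3A had none.

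The 3 NR libraries were not alike. Genes were found, after their values were seen, that were read in NR1 and in every SP library and were all but missing from NR2 and NR3. KIT, a receptor tyrosine kinase, had 167 counts in NR1, 1 in NR2, 0 in NR3 and 160, 189 and 162 in SP. At the level of the other 4 libraries, 222 counts would be expected over NR2 and NR3 together. ALK, another receptor tyrosine kinase, had 150, 0 and 6 counts in NR1, NR2 and NR3 and 154, 193 and 147 in SP. PDGFRA, a PDGF receptor, had 58, 0 and 0 in NR and 65, 50 and 66 in SP, and RET, a receptor of glial-derived ligands, had 46, 1 and 0 in NR and 62, 69 and 58 in SP. COL1A2, a collagen chain, and SPARC, a matrix protein, split the NR libraries the same way, with 37, 0 and 0 and with 33, 1 and 2 counts. Pseudogenes of mitochondrial genes went the other way: MTCO1P21 had 1, 53 and 38 counts with rods and 2, 4 and 5 with spheres. In Ab, KIT had 173, 195 and 139 counts, and ALK had 169, 165 and 141. PDGFRA had 60, 72 and 45 counts in Ab, and RET had 45, 62 and 41. So in these genes NR1 was like the spheres, and in these receptors the Ab libraries were too. NR2 and NR3, which were also the shallowest libraries, were like each other. None of these receptors passed the test between NR and SP (KIT, log2 fold change −1.53, adjusted p = 0.665 by edgeR). Labels give no batch for these libraries, and the part of this split in the results was not tested. The count of passing genes, the length trend and many of the leading genes are therefore given also for NR1 alone against SP.

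As background, gold particles coated with antibody enter cells by endocytosis, and their shape is known to alter how membranes wrap them and how much is taken up. Most of the particles then sit in endosomes and lysosomes, the compartments in which lipoproteins from outside the cell are taken apart and their cholesterol released. Cells match their own cholesterol synthesis to that supply through SREBP2, a transcription factor that is held in the endoplasmic reticulum while sterols are plentiful.

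Differences between rods and spheres were few and small. Of 14903 genes tested by edgeR's quasi-likelihood test, 66 (0.443%) passed at an adjusted p of 0.05, with 39 higher in NR (0.262%) and 27 lower (0.181%). Without adjustment, 928 genes were higher (6.23%) and 994 lower (6.67%) at p under 0.05. The absolute log2 fold change of the 66 genes had a median of 0.25, and that of all tested genes 0.083. Of the 66 genes, 28 differed by 1.2-fold or more, 5 by 1.5-fold or more, and 3 by 2-fold or more (0.0201% of those tested). In all 66 the groups did not overlap, as in 17.9% of tested genes (8.21% higher and 9.72% lower in NR).

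Which genes passed depended on single libraries. Without NR2, 10 genes passed, and without SP3, 188 passed. The counts were 144 without NR1, 23 without NR3, 11 without SP1 and 18 without SP2. LRP1, ATP2B4, PPIAP22 and RPL21P16 passed whichever library was left out, and 21 of the 66 passed in at most 1 of the 6 such fits. With NR1 as the only rod library the spread is estimated from the SP libraries, and NR1 is assumed to vary like them, so a gene that does not pass is not shown to be alike in NR1 and SP. In that fit 56 genes passed (27 higher and 29 lower), of which 15 were among the 66: 9 that were lower (LRP1, ATP2B4, MACF1, POLR2A, ABL2, FAT1, NFAT5, TRRAP and RNF213) and 6 that were higher (RPL21P16, RPL14P1, RPS27P3, ZFAS1, MT-ND3 and OST4). NR2 and NR3 against SP shared 44 genes with the 66. Both settings, which share the SP libraries, called 9 of the 66, which were those 15 without ABL2, NFAT5, TRRAP, RNF213, MT-ND3 and OST4.

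Gene length went with the direction of the difference. The log2 fold change had a median of 0.087 in the shortest of 10 equal bins of genes by exonic length (up to 1325 bases) and −0.052 in the longest (11562 bases or more), and the bins between lay in order. In the shortest bin 64.9% of genes were above 0, and in the longest 29.8%. Of the 39 genes higher in NR, 18 were in the shortest bin and none in the longest 2 bins. Of the 27 lower genes, 19 were in the longest 2 bins and 1, ID1, in the shortest. Median exonic length was 1706 bases for the higher genes, 12159 for the lower and 4808 for all tested genes. Only 19.0% of the shortest bin was protein-coding.

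Per library, the slope of each gene's deviation (log2 CPM less its mean over the 6 libraries) per doubling of exonic length was −0.0149, −0.0144 and −0.0138 in NR and 0.0141, 0.0164 and 0.0125 in SP. All 3 NR libraries were below all 3 SP libraries, NR1 included. The difference was −0.0288 log2 units per doubling (exact permutation test over the 20 splits of 3 against 3, two-sided p = 0.1, the smallest this design allows). Among protein-coding genes alone the slopes were −0.0272, −0.0114 and −0.00802 in NR and 0.0191, 0.0210 and 0.00663 in SP, so the order of the groups was kept with a wider spread. The shortest bin held 5.10%, 4.93% and 4.91% of the counts with rods, 4.87%, 4.78% and 4.83% with spheres and 3.98%, 3.74% and 3.80% with antibody alone. The longest held 12.9% in NR1, the lowest of all, 13.7%, 13.8% and 13.5% with spheres and 14.2%, 14.6% and 14.6% with antibody alone, with NR2 and NR3 between NR1 and SP. NR and SP were thus closer to each other in this respect than either was to Ab. For GC content the order depended on NR1: the slopes per 10 percentage points were −0.00976, 0.0101 and 0.0149 in NR and −0.00428, −0.00842 and −0.00254 in SP (exact permutation two-sided p = 0.4). The difference was 0.0102 with all 6 libraries, or 0.00072 with length as a second term in the slope. It was 0.0176 without NR1, where NR2 and NR3 lay above every SP library (exact permutation p = 0.1, the smallest possible).

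When each library's trend on length and GC content was removed by offsets in the model, 25 genes passed, 15 higher and 10 lower, and 19 of them were among the 66 (12 higher and 7 lower). The 12 were PPIAP22, PBX2, NENF, ACAT2, RPL11, FDPS, ZFAS1, MSMO1, LSS, TAF10, C11orf54 and PTP4A2, and the 7 were LRP1, ATP2B4, ERBB2, ID1, POLR2A, ZKSCAN1 and FAT1. The rest of the 66 no longer passed, and all 66 kept their direction. This fit also removes any true difference that runs with length. The part of RNA quality or library preparation in the length trend was not tested.

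**Figure D1:**
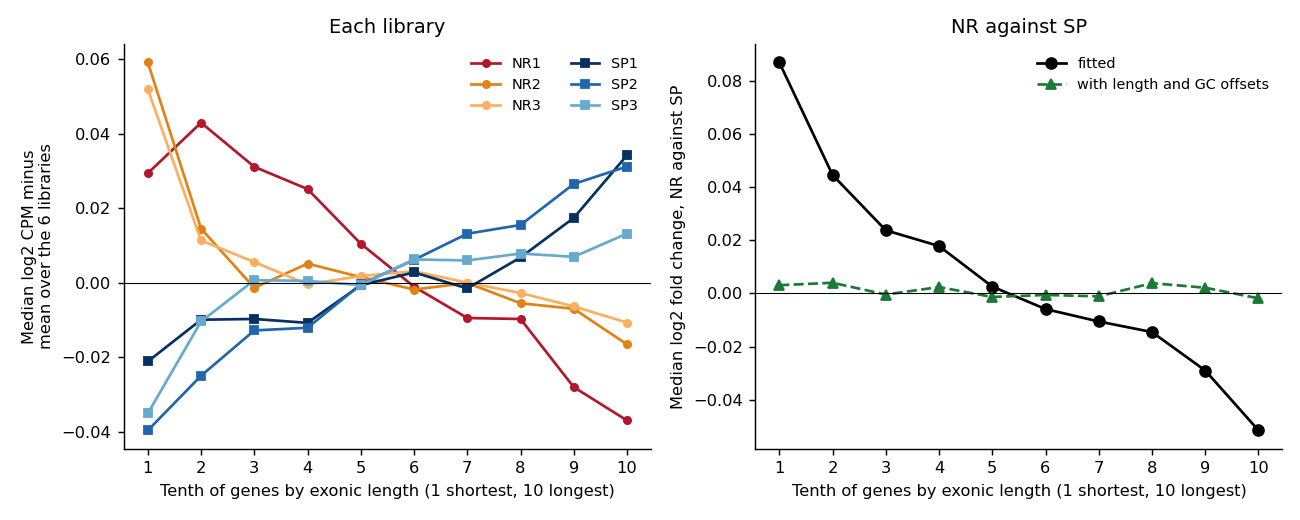
Left, median deviation of log2 CPM (vertical axis) in each of 10 equal bins of genes by exonic length (horizontal axis, shortest to longest), 1 line per NR and SP library. Right, median log2 fold change of NR against SP by the same bins, as fitted and with length and GC offsets: it runs from 0.087 to −0.052 as fitted and stays within 0.0040 of 0 with offsets.

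Genes higher with rods were led by short copies of housekeeping genes. PPIAP22, a processed pseudogene of the cyclophilin gene PPIA (ENSG00000198618, chr21:20230097-20230594, + strand of GRCh37), was at 55.8, 68.8 and 61.7 CPM with rods, 44.1, 46.2 and 47.8 with spheres and 38.0, 37.9 and 36.8 with antibody alone. Every NR library was above every SP library, with the widest spread within NR. The log2 fold change was 0.43 (SE 0.06, n = 3 against 3, adjusted p = 0.00875 by edgeR). With NR1 alone it was 0.27 (adjusted p = 0.171). RPL21P16, a processed pseudogene of a ribosomal protein gene (ENSG00000220842, chr10:122114213-122114695, − strand of GRCh37), was at 34.2, 31.6 and 31.4 CPM with rods, 24.0, 24.3 and 25.7 with spheres and 28.8, 27.3 and 27.0 with antibody alone. The SP libraries lay below both other groups (log2 fold change 0.40, SE 0.07, adjusted p = 0.00997). With length and GC offsets it was 0.29 (adjusted p = 0.0826).

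Of the 39 higher genes, 14 were processed pseudogenes, and of the 27 lower none. Among all 759 processed pseudogenes tested, 1.84% passed, with a median log2 fold change of 0.18, or 0.077 with offsets. Reads of a processed pseudogene and of its parent cannot be told apart where the sequences match, and these values are uncertain for that reason. The parents were far more abundant and nearer to 0, RPS27 only slightly so. PPIA was at 0.12 on the log2 scale (SE 0.04, adjusted p = 0.172) and RPL21 at 0.10 (adjusted p = 0.323). RPL14 was at 0.10 (adjusted p = 0.187) beside 0.35 for its copy RPL14P1, and RPS27 at 0.26 (adjusted p = 0.215) beside 0.29 for RPS27P3. Of 156 ribosomal-protein pseudogenes with a tested parent, 10 passed (6.41%), all higher, and 136 were above 0 with a median of 0.22. Pseudogenes took 1.11% ± 0.040 (SD, n = 3) of the counts in NR and 1.01% ± 0.0076 in SP, without overlap (exact permutation two-sided p = 0.1, adjusted p = 0.3 over 6 measures of composition).

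Ribosomal protein genes lay slightly above 0 almost without exception. Of 78 genes of the cytosolic ribosome, 3 passed, all higher (RPL11, RPL39 and RPL35A), and 74 were above 0. Their median was 0.090, and −0.00046 over all tested genes. It was 0.13 with NR1 alone, 0.059 for NR2 and NR3, and 0.071 with offsets. NR1 was the highest of the 6 libraries in 61 of the 78. RPL11, a protein of the large subunit (ENSG00000142676, chr1:24018232-24023325, + strand of GRCh37), was at 792, 749 and 766 CPM with rods, 699, 618 and 675 with spheres and 472, 436 and 455 with antibody alone. The groups did not overlap, and SP2 was the lowest of the 6 libraries (log2 fold change 0.21, SE 0.04, adjusted p = 0.0168). With NR1 alone it was 0.25 (adjusted p = 0.0974). RPL39 had a log2 fold change of 0.19 (adjusted p = 0.0210) and RPL35A 0.17 (adjusted p = 0.0478).

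Of the leading genes higher with rods, ACAT2 and FDPS are given below with cholesterol synthesis. ZFAS1, a noncoding RNA whose introns hold small nucleolar RNAs, was at 191, 182 and 171 CPM with rods and 160, 150 and 156 with spheres, both far under the 765, 783 and 818 in Ab. Its groups did not overlap (log2 fold change 0.22, SE 0.04, adjusted p = 0.0181), and it passed with NR1 alone (0.29, adjusted p = 0.0440) and with offsets (0.24, adjusted p = 0.0277). Of its exonic bases 38.6% overlap another gene, and the strand setting of the counting is not given in the sources used here. Of 24 small nucleolar RNA host genes ZFAS1 was the 1 that passed, and 18 were above 0 (median 0.077, but 0.032 without NR1 and 0.041 without SP2).

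NENF, which encodes the secreted factor neudesin (ENSG00000117691, chr1:212606262-212619721, + strand of GRCh37), was at 56.6, 68.0 and 64.9 CPM with rods, 48.5, 49.8 and 50.2 with spheres and 34.0, 26 and 29.9 with antibody alone. NR1 lay nearer to SP than the other rod libraries did (log2 fold change 0.345, SE 0.06, adjusted p = 0.0126), and with NR1 alone the difference was 0.19 (adjusted p = 0.384). SLPI, a secreted inhibitor of proteases, was at 266, 258 and 252 CPM with rods, 208, 211 and 240 with spheres and 60.1, 60.2 and 62.1 with antibody alone (log2 fold change 0.24, adjusted p = 0.0181). SP3 came close to NR, and with offsets SLPI was at 0.14 (adjusted p = 0.216) and with NR1 alone at 0.27 (adjusted p = 0.114).

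Most genes lower with rods were long, and among the 27 were receptors and surface proteins. LRP1, a large endocytic receptor that takes up many ligands (ENSG00000123384, chr12:57522266-57607144, + strand of GRCh37), was at 162, 171 and 172 CPM with rods, 211, 205 and 192 with spheres and 50.2, 42.0 and 39.9 with antibody alone. All 3 rod libraries were below all 3 sphere libraries, and both were well above ramucirumab alone. Its log2 fold change over all 6 libraries was −0.27 (adjusted p = 0.00875, SE 0.04), with −0.33 with NR1 alone (adjusted p = 0.0296), −0.24 with NR2 and NR3 (adjusted p = 0.00789) and −0.20 with offsets (adjusted p = 0.0355). ATP2B4, a plasma membrane calcium pump (ENSG00000058668, chr1:203595960-203713209, + strand of GRCh37), was at 179, 196 and 196 CPM with rods, 234, 229 and 219 with spheres and 141, 139 and 136 with antibody alone. NR1 was the lowest of the 6 libraries (log2 fold change −0.26, SE 0.04, adjusted p = 0.00997). ATP2B4 passed with NR1 alone (−0.35, adjusted p = 0.0102) and with offsets (−0.23, adjusted p = 0.0206).

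ERBB2, the receptor tyrosine kinase HER2 (ENSG00000141736, chr17:37844167-37886679, + strand of GRCh37), was at 90.8, 79.8 and 79.2 CPM with rods, 103, 103 and 102 with spheres and 77.7, 74.7 and 70.1 with antibody alone. The sphere libraries were nearly equal, while NR1 lay between them and the other rods. Over all 6 libraries it was −0.30 on the log2 scale (SE 0.05, adjusted p = 0.00997), −0.37 with NR2 and NR3 (adjusted p = 0.000203) and −0.19 with NR1 alone (adjusted p = 0.326). The last of these fits holds 1 rod library. ERBB2 was the 1 of 15 growth factor receptors tested that passed, and 3 of the 15 were above 0. The median of the list was −0.081, or −0.050 with offsets and −0.052 without NR1. EPHA2, an ephrin receptor, was at 270, 253 and 266 CPM with rods and 286, 302 and 293 with spheres and did not pass (adjusted p = 0.0538). EGFR had a log2 fold change of −0.081 (adjusted p = 0.404) and MET −0.058 (adjusted p = 0.526). LIFR, the receptor of leukemia inhibitory factor, passed at −0.18 (adjusted p = 0.0347), and FAT1, a large cadherin of the cell surface, at −0.28 (adjusted p = 0.0355).

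Cytoskeletal and matrix genes followed. MACF1, which links actin to microtubules, was at 267, 297 and 290 CPM with rods, 338, 334 and 328 with spheres and 262, 277 and 272 with antibody alone, so the spheres stood above both other groups (log2 fold change −0.23, SE 0.04, adjusted p = 0.0126). With 70573 exonic bases it was the longest of the 66 genes, and with offsets it was at −0.13 (adjusted p = 0.142). Of 54 actin regulators, ENAH, which lengthens actin filaments, was the 1 that passed (−0.19, adjusted p = 0.0347), and 18 were above 0 (median −0.025, or −0.0050 with offsets). FLNA, an actin crosslinker, was at 1345, 1417 and 1464 CPM with rods and 1760, 1585 and 1542 with spheres and did not pass (adjusted p = 0.0538).

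FN1, which encodes fibronectin, was at 173, 172 and 158 CPM with rods, 198, 204 and 184 with spheres and 60.3, 56.6 and 34.9 with antibody alone. NR3 was the lowest of the 6 and SP3 the lowest sphere library (log2 fold change −0.215, adjusted p = 0.0256). With offsets FN1 was at −0.17 (adjusted p = 0.104). COL5A1, a fibrillar collagen chain, had a log2 fold change of −0.16 (adjusted p = 0.0474), and −0.11 with offsets (adjusted p = 0.149). These were the 2 that passed of 26 matrix and protease genes, 8 of which were above 0. The median of that list was −0.069, −0.16 with NR1 alone, −0.021 for NR2 and NR3, and −0.026 with offsets.

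The other leading lower genes are given singly. POLR2A, the largest subunit of RNA polymerase II, was at 273, 298 and 298 CPM with rods, 368, 344 and 325 with spheres and 271, 248 and 255 with antibody alone. NR1 was lowest and SP1 highest of the 6 (log2 fold change −0.25, SE 0.05, adjusted p = 0.0150), and POLR2A passed with NR1 alone (−0.35, adjusted p = 0.0203) and with offsets (−0.23, adjusted p = 0.0285). ID1, an inhibitor of helix-loop-helix transcription factors (ENSG00000125968, chr20:30193086-30194318, + strand of GRCh37), was at 139, 135 and 135 CPM with rods, 178, 152 and 163 with spheres and 252, 232 and 239 with antibody alone. The 3 groups formed 3 levels without overlap. ID1 is short, at 1233 bases, and its difference was −0.27 (SE 0.05, adjusted p = 0.0137) as fitted and −0.32 (adjusted p = 0.00308) with offsets. With NR1 alone ID1 was at −0.25 (adjusted p = 0.232). ZKSCAN1, a zinc finger protein, was at −0.25 (adjusted p = 0.0150), and HELZ, an RNA helicase, at −0.29 (adjusted p = 0.0158). TRRAP, a further passing gene that encodes a scaffold of histone acetyltransferase complexes, was at −0.21 (adjusted p = 0.0473). PFKFB2, an enzyme that steers glycolysis, was at −0.23 (adjusted p = 0.0256).

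Cholesterol synthesis was the list with the most passing genes. The pathway runs from acetyl-CoA through the mevalonate steps and lanosterol to cholesterol. Of 27 genes tested 5 passed (ACAT2, FDPS, MSMO1, LSS and TMEM97), all higher in NR, and 26 were above 0. Their median log2 fold change was 0.17, both as fitted and with offsets, and their median length was 4717 bases, close to that of all tested genes. Without adjustment 12 of the 27 were higher at p under 0.05, beside 6.23% of all tested genes, and in 14, all higher, the groups did not overlap, beside 8.21%. The list was known to move from earlier results of these libraries, and it is given as a description.

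ACAT2, the thiolase of the first step (ENSG00000120437, chr6:160183077-160200144, + strand of GRCh37), was at 99.8, 96.9 and 94.6 CPM with rods, 72.1, 80.7 and 85.6 with spheres and 39.1, 35.6 and 37.2 with antibody alone. The rod libraries lay close together and SP1 was the lowest (log2 fold change 0.29, SE 0.05, adjusted p = 0.0137). Of its exonic bases 22.2% overlap another gene. FDPS, which makes farnesyl diphosphate (ENSG00000160752, chr1:155278539-155290457, + strand of GRCh37), was at 127, 118 and 120 CPM with rods, 94.4, 107 and 105 with spheres and 53.3, 46.9 and 50.4 with antibody alone (log2 fold change 0.25, SE 0.05, adjusted p = 0.0174). Here too SP1 was the lowest, and the groups did not overlap. MSMO1, a sterol methyl oxidase, was at 104, 103 and 102 CPM with rods, 75.9, 92.0 and 86.9 with spheres and 22, 23.7 and 22.4 with antibody alone (log2 fold change 0.28, adjusted p = 0.0186). LSS, which forms lanosterol, was at 81.1, 85.7 and 88.5 CPM with rods, 63.2, 73.5 and 72.8 with spheres and 51.5, 45.8 and 45.3 with antibody alone (log2 fold change 0.28, adjusted p = 0.0210). For all of these genes the order was Ab, SP, NR from low to high. TMEM97, the sigma-2 receptor, had a log2 fold change of 0.22 (adjusted p = 0.0362), and 0.19 with offsets (adjusted p = 0.0850).

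INSIG1, which holds SREBP in the endoplasmic reticulum, was at 158, 159 and 152 CPM with rods and 103, 138 and 145 with spheres (0.29, adjusted p = 0.503), with SP1 apart from the other sphere libraries.

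SP1 was the lowest of the 6 libraries in 25 of the 27 genes. Without SP1 the median was 0.11, with 26 genes above 0, and ACAT2 (0.23, adjusted p = 0.0909), FDPS (0.20, adjusted p = 0.104) and MSMO1 (0.21, adjusted p = 0.104) no longer passed. With NR1 as the only rod library the median was 0.17, and it was 0.16 for NR2 and NR3. Both values share the 3 SP libraries, SP1 among them. With NR1 alone ACAT2 was at 0.32 (adjusted p = 0.0955) and FDPS at 0.30 (adjusted p = 0.0782), and neither passed. Fatty acid synthesis, the neighbouring pathway, had no passing gene of 15, with 13 above 0 and a median of 0.053. SP1 was the lowest library in 13 of those 15, and without SP1 the median was 0.0085. SCD, the desaturase, was at 559, 585 and 584 CPM with rods and 397, 531 and 520 with spheres (adjusted p = 0.503).

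Since these genes moved together, their promoters are shown. The 250 bases before the start site were read from RefSeq (GRCh38.p14, 5′ to 3′ on the gene's strand), and entries were matched by symbol for 20 of the 27 genes. The letters CCAAT, searched on both strands and set in capitals, were found in 18 of the 20 and in 32.0% of all 35116 promoters. TCACNCCAC, a form of the sterol response element, again on both strands, was found in 1 (SREBF2) and in 0.883% of all promoters. Both are matches of letters and no measurement of binding. Of the passing genes with an entry, FDPS (chr1:155308616-155308865, + strand) has 3 CCAAT matches, MSMO1 (chr4:165327419-165327668, + strand) has 4, LSS (chr21:46228775-46229024, − strand) has 1 and TMEM97 (chr17:28318950-28319199, + strand) has 3.
FDPS: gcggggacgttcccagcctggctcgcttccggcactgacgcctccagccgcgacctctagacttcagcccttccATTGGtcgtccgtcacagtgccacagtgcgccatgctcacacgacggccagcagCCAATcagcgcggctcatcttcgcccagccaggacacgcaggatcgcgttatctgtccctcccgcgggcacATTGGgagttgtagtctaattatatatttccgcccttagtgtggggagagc
MSMO1: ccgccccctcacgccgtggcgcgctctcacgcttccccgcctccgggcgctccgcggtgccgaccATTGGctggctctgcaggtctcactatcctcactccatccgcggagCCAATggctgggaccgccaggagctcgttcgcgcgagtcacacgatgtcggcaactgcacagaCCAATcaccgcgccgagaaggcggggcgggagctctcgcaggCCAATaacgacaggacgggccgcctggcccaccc
LSS: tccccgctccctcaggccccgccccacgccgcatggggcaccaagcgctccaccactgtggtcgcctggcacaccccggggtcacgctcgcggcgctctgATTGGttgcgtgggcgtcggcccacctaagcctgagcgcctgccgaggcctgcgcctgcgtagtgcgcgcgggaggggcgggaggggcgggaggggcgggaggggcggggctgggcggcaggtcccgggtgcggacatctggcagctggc
TMEM97: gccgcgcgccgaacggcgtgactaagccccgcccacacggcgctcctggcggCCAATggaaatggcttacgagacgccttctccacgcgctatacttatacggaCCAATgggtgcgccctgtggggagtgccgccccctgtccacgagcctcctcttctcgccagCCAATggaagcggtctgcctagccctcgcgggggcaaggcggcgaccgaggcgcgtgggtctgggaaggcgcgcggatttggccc

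Few genes of cell growth and division passed. Of 44 DNA replication genes, PCNA, the sliding clamp, passed: it was at 340, 331 and 325 CPM with rods, 290, 296 and 304 with spheres and 197, 206 and 200 with antibody alone (log2 fold change 0.17, adjusted p = 0.0353). The groups did not overlap, and 39 of the 44 genes were above 0 with a median of 0.074. SP1 was the lowest library in 26 of the 44, and the median was 0.051 without SP1 and 0.045 with NR1 alone. DUT, which clears dUTP and was not in that list, passed at 0.19 (adjusted p = 0.0256). Of 48 mitosis genes none passed and 25 were above 0 (median 0.0070, and 0.0049 to 0.015 with 1 library left out). Of 25 p53 targets none passed, 8 were above 0, and the median was −0.070 (−0.066 with offsets, −0.11 with NR1 alone). At an unadjusted p under 0.05, 11 of the 25 p53 targets were lower, beside 6.67% of all tested genes, and 1, PMAIP1, was higher (0.15), beside 6.23%. FDXR, a mitochondrial reductase with the smallest p of the list, was at 32.5, 38 and 37.1 CPM with rods and 48, 41.2 and 39.1 with spheres, beside 11.1, 8.60 and 8.98 with antibody alone (−0.26, adjusted p = 0.125). CDKN1A, the cell cycle inhibitor p21, was at 93.0, 85.2 and 97.2 CPM with rods and 104, 101 and 101 with spheres, beside 214, 198 and 190 with antibody alone (−0.15, adjusted p = 0.170). GADD45A, a stress sensor, was at 22.1, 21.9 and 22.7 CPM with rods and 30.1, 25.7 and 24.0 with spheres, beside 117, 123 and 117 with antibody alone (−0.26, adjusted p = 0.149). Rods and spheres did not overlap in these 3 genes, beside 9.72% of all tested genes that were lower in NR without overlap. Genes of small p were named, so this was largely set by the choice. With 1 library left out the log2 fold change ranged from −0.32 to −0.17 for FDXR and from −0.32 to −0.16 for GADD45A. For CDKN1A it ranged from −0.19 to −0.11. The p of CDKN1A was not among the 3 smallest of the list, and CDKN1A was chosen after its values were seen. Against ramucirumab alone the gold groups were higher in FDXR and lower in CDKN1A and GADD45A.

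None of the nuclear genes of the respiratory chain tested passed. Their medians were 0.090 for 34 genes of complex I, 0.038 for 14 of complexes II and III, 0.11 for 12 of complex IV and 0.075 for 16 of complex V. With offsets these became 0.045, 0.013, 0.078 and 0.064, and for NR2 and NR3 without NR1 complex I was at 0.049, complexes II and III at 0.0048, complex IV at 0.072 and complex V at 0.045. Complexes II and III turned to −0.0037 without SP2. Of the 13 transcripts of the mitochondrial genome itself MT-ND3, a complex I subunit, passed (0.18, adjusted p = 0.0413), and 6 were above 0. The median of the 13 was −0.026, or 0.063 with NR1 alone. With 1 library left out it ranged from −0.054 (without NR1) to −0.00066 (without NR2). MT-ND3 is 346 bases long and was at 0.054 with offsets (adjusted p = 0.660).

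Signalling and uptake genes gave few calls. Of 24 immediate early genes JUND, an AP-1 subunit, passed and was higher (0.18, adjusted p = 0.0470), while 8 of the 24 were above 0. The median was −0.078, and with 1 library left out it ranged from −0.10 (without SP1) to −0.050 (without SP2). Of 15 ERK feedback genes none passed (median −0.062, but −0.015 without SP2 and −0.0090 without SP3). LRP1 was the 1 that passed of 30 genes of endocytic coats and scavenger receptors, with 13 above 0 and a median of −0.012, which was 0.0058 without SP3. None of 36 genes of Fc gamma receptors and their signalling passed, nor any of 36 BCL2 family and caspase genes or of 5 VEGF receptors, ligands and neuropilins. Their medians were 0.015, 0.049 and 0.034 with all 6 libraries. With 1 library left out these ranged from −0.0043 to 0.036, from 0.021 to 0.063 and from −0.056 to 0.079. The medians of the Fc gamma and VEGF lists thus did not keep a direction. VEGFA was at 112, 94.5 and 100.2 CPM with rods and 97.7, 101 and 96.8 with spheres, with overlap, and at 613, 583 and 586 in Ab. Of 33 splicing factors SRSF9 passed (0.23, adjusted p = 0.0413), and 46.7% of its exonic bases overlap another gene.

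**Figure D2:**
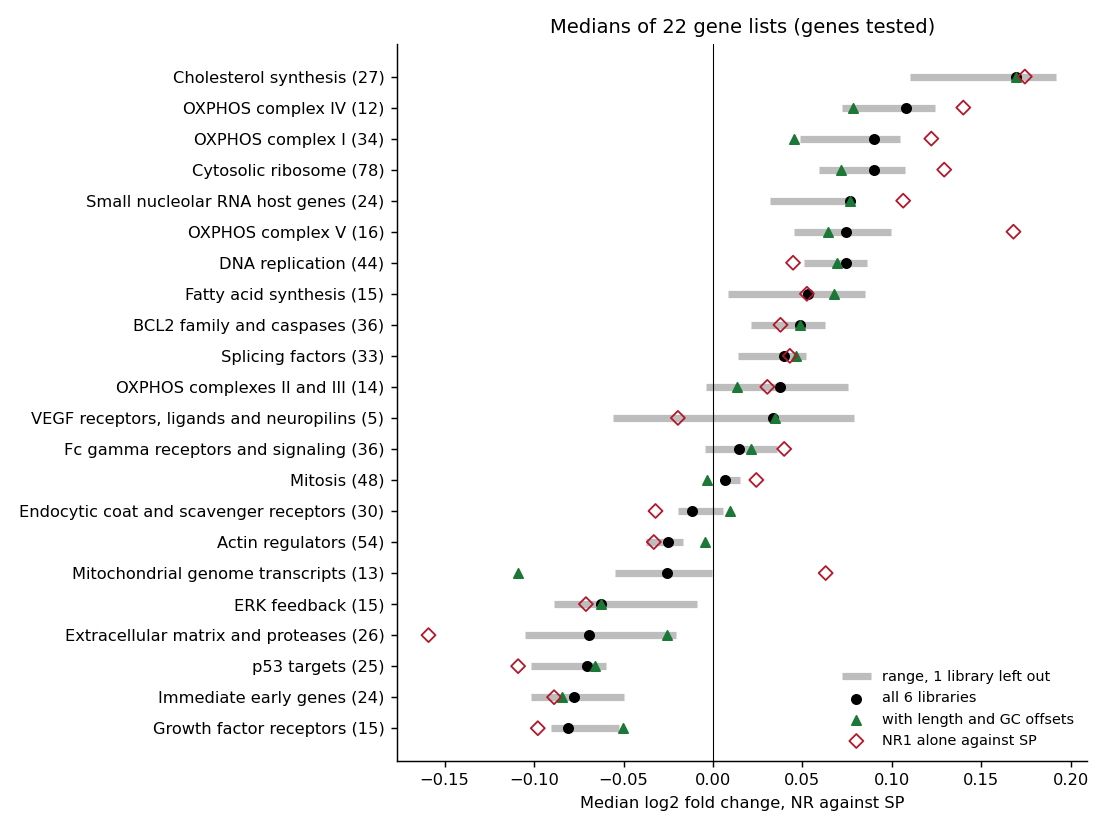
Median log2 fold change of NR against SP (horizontal axis) for 22 gene lists (vertical axis). Black dots are all 6 libraries, green triangles the fit with length and GC offsets, grey bars the range when 1 library is left out, and red open diamonds NR1 alone against SP. With all 6 libraries cholesterol synthesis has the highest median, 0.17. Without SP1 it is 0.110, below the 0.115 of complex IV of the respiratory chain.

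The 3 genes past 2-fold were all at low levels. PBX2, a homeodomain cofactor (chr6:32152510-32157979 of GRCh37), had 128, 114 and 104 counts with rods, 74, 73 and 52 with spheres and 57, 88 and 85 with antibody alone. In CPM this was 5.01, 8.20 and 6.5 in NR and 3.40, 3.19 and 2.53 in SP, so NR1 was the lowest of the rods (log2 fold change 1.08, SE 0.19, adjusted p = 0.00997). With NR1 alone it was 0.71 (adjusted p = 0.276). PBX2 lies in a stretch of chromosome 6, from 28000000 to 34000000, where counts were unusually scarce: 137 of 202 protein-coding genes (67.8%) had 3 counts or fewer in all 6 libraries, against 31.5% of all protein-coding genes. RPS18 and TUBB, which every growing cell uses, had 1 to 6 and 1 to 7 counts there. Counts in this stretch do not give the level of its genes, and their part in the call on PBX2 was not tested. TAF10, a subunit of TFIID, was at 3.56, 4.96 and 6.56 CPM with rods and 2.02, 2.49 and 2.78 with spheres (1.02, adjusted p = 0.0267), and 53.7% of its exonic bases overlap another gene. RP11-152F13.3, a transcript of unknown function, was at 1.76, 0.935 and 1.19 CPM with rods, 0.460, 0.393 and 0.439 with spheres and 7.17, 1.51 and 1.82 with antibody alone, and passed in none of the fits that left out a library (1.63, adjusted p = 0.0431).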

How the data were processed

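The authors extracted RNA with Trizol, made NEBNext libraries, aligned the reads with HISAT2 2.1.0 and deposited whole-number read counts per Ensembl gene, not scaled. DESeq2 1.16.1 is also named in the submitters' processing notes. The study's reporting summary names the human genome build hg19, while the submitters' processing notes list the mouse build mm9. The gene IDs are human. The counting tool is named differently within the study's own sources. The annotation release and strand setting are not given in the sources used here. Of 60880 gene IDs, 59858 matched GENCODE 44 on GRCh37, which gave symbols, positions, exonic lengths and GC content.

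From the deposited counts, edgeR 4.0.16 (R 4.3.3) fitted NR against SP on the 6 libraries, with TMM scaling, filterByExpr (14903 genes) and a robust quasi-likelihood test. A gene passed at a Benjamini-Hochberg adjusted p of 0.05 or less over all tested genes, with no minimum fold. Log2 fold changes are NR over SP. CPM used TMM factors over all 9 libraries. Offsets for length and GC content were lowess curves (span 0.3) fitted per library. Leading genes were, per direction, the 10 of smallest adjusted p with a mean count of 100 or more, with those passing in at least 4 of 6 leave-one-out fits, those past 2-fold and up to 3 per list. Other genes named among the 66 or in the account of NR2 and NR3 were chosen after their values were seen. So were those named for their level or in a list beyond those 3. The 47 gene lists, 4 marker lists and members were chosen with earlier results of these data known, and lists are given by counts and medians only. Alternatives were other scalings and filters, DESeq2 1.42.0, all 9 libraries, a fold minimum, the offsets, the replicate number as a block, each library left out and, chosen after seeing the data, NR2 and NR3 left out together and length from 1 canonical transcript per gene. The authors' own comparisons were not used. Some single genes are not reported here.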

Additional observations from a re-analysis of the deposited data

How the results depend on the processing

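The count of 66 passing genes (39 higher and 27 lower in NR) became 328 (174 and 154) with no filter on low counts, 42 (15 lower) with a quasi-likelihood fit that was not robust, 25 (15 and 10) with length and GC offsets, 144 (71 and 73) with DESeq2, 28 (20 and 8) at 1.2-fold or more and 3 (3 and 0) at 2-fold or more. It was 62 and 63 under other scalings, 69 with at least 10 counts in every library, 48 (15 lower) with all 9 libraries and 56 with NR2 and NR3 left out. Leaving out 1 library gave 10 (without NR2) to 188 (without SP3), with 4 to 90 higher and 4 to 98 lower. DESeq2 called 54 of the 66 and gave no adjusted p for the other 12.

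The replicate numbers did not pair the libraries: deviations of same-numbered NR and SP libraries correlated at 0.0040, 0.0028 and 0.0023. With the number as a block 51 genes passed, 38 of them among the 66, and with block and offsets together 11 (7 and 4). Of 198 list medians recomputed under the alternatives, for 22 lists, 32 moved by more than the spread between replicates. The length trend difference ranged from −0.0327 to −0.0277 over its alternatives. The GC trend difference, 0.0102, was 0.00072 with length as a second term in the slope and −0.00468 without NR2 and NR3. Among single genes MT-CO2 turned to −0.047 with offsets and −0.049 with block and offsets. MT-CO3, near 0, turned to −0.0013 with no filter, −0.00073 with at least 10 counts, −8.71e-05 with the block, −0.091 with offsets and −0.093 with both, and ranged from −0.035 to 0.024 over the leave-one-out fits, below 0 in 3. VEGFC turned to 0.023 without NR2 and NR3, and VEGFA to −0.0080 without NR1 (up to 0.11 without NR2). The cause was not tested in any of these. With 3 libraries a group, a sample-level permutation test cannot give a p below 0.1, and the depth of NR2 limits what low genes can show.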

Other observations

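Outside the lists described above, 25 lists held 579 tested genes, and 1 had a passing gene: ACAT1, the mitochondrial thiolase of ketone metabolism, in fatty acid oxidation. ACAT1 was at 121, 126 and 119 CPM with rods, 99.98, 104 and 113 with spheres and 57.5, 54.8 and 56.1 with antibody alone (log2 fold change 0.21, adjusted p = 0.0482 by edgeR). Its cytosolic counterpart ACAT2 lay in the same direction. Medians of these lists ran from −0.13 (metallothioneins) to 0.083 (MHC class I presentation). The HLA genes of the latter lie in the stretch of chromosome 6 where counts do not give the level of a gene. B2M, the light chain of MHC class I, was at 3026, 2996 and 2929 CPM with rods and 2598, 2631 and 2862 with spheres (adjusted p = 0.0649), without overlap.

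Of 23 chemokine and NF-kB feedback genes none passed, 14 were above 0 and the median was 0.043, and of 17 hypoxia targets none passed, 10 were above 0 and the median was 0.0020. The members named here were chosen after their values were seen. TNFAIP3, a feedback inhibitor of NF-kB, was at 38.9, 35 and 41.7 CPM with rods, 46.1, 46.0 and 45.5 with spheres and 72.6, 71.6 and 71.0 with antibody alone (adjusted p = 0.0649). NFKBIA, another such inhibitor, lay the other way at 130.4, 125 and 129 CPM with rods and 99.3, 113 and 124 with spheres (adjusted p = 0.137), and RELB, an NF-kB subunit, was at 22.2, 24.5 and 23.8 and at 20.6, 18.9 and 19.6 CPM (adjusted p = 0.145). PFKFB4, an enzyme that steers glycolysis, was at 16.4, 15.5 and 15.1 CPM with rods, 11.3, 11.8 and 12.9 with spheres and 162, 143 and 145 with antibody alone (log2 fold change 0.39, adjusted p = 0.0538). IL1B, the cytokine interleukin-1 beta, was at 5.12, 5.03 and 5.0 CPM with rods and 9.10, 6.15 and 6.33 with spheres, with SP1 the highest (adjusted p = 0.143). COL1A2 and SPARC, which split the NR libraries, also split Ab, at 198, 278 and 33 counts and at 141, 186 and 30 counts in Ab1, Ab2 and Ab3. Summed pseudogenes of mitochondrial genes were at 343, 399 and 373 CPM with rods and 347, 328 and 315 with spheres, with NR1 within the range of the spheres.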
